A study of Mus musculus with 4 samples.

Results

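Neurod1 sites that stood apart from both Insm1 and Foxa2 were mapped in a mouse beta cell line by chromatin immunoprecipitation and sequencing (ChIP-seq), in which an antibody pulls down a protein with the DNA it is bound to. The sites were chosen by overlap in the deposited lists, as the Neurod1 sites that shared not even 1 bp with an Insm1 site or a Foxa2 site. There were 3409 such sites among 14607 Neurod1 sites, a share of 23.3% (95% Wilson interval 22.7 to 24.0%), and among 60439 sites of the 3 lists together. The overlap itself chose the sites, so their number and the absence of a partner describe the rule and are no finding.

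All 4 samples, the Insm1, Neurod1, Foxa2 and control IgG pull-downs, came from the same kind of cells. These were a line established from the islets of RIP1-Tag2 transgenic mice aged 6 weeks, with a background mixed from C57BL/6, 129/ola and CBA/J, used at passages 10 to 15 and grown in 25 mmol/l glucose. In RIP1-Tag2 mice the insulin promoter directs a viral tumour antigen to beta cells, so every sample, the control included, carries that transgene and represents transformed beta cells. The Neurod1 antibody was #4373 of Cell Signaling Technology, the Foxa2 antibody sc-6554 of Santa Cruz Biotechnology, and the Insm1 antibody is credited to Welcker et al. Each factor had 1 site list and no second list to compare it with, and IgG sites were not analysed here. The lists hold only positions and a score, so the identity of the cells could not be checked against marker genes, and the read depth is unknown.

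Neurod1 is a basic helix-loop-helix protein that pairs with broadly expressed E proteins and binds short DNA sequences called E-boxes. It activates insulin transcription in beta cells and drives neuronal differentiation in the nervous system. Insm1 is a zinc finger factor needed for the development of endocrine cells, and Foxa2 is a forkhead factor that can bind DNA in closed chromatin and helps open it. The study asked whether Insm1 acts together with the other factors, and the sites described here are those Neurod1 positions at which the lists show no such meeting. The other Neurod1 sites serve for comparison. Of these, 3032 overlapped Insm1 alone, 1605 Foxa2 alone and 6561 both partners. Sites of one list are not replicates of a condition, so no test was made between classes, and the intervals cover counting error only.

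Most Neurod1 sites without a partner had scores near the lower end of the list. The score is a whole number that the authors gave each site, of unknown definition, and it is compared here only within the Neurod1 list, where it starts at 46. The lowest score was shared by 174 of the sites, and 896 scored 51 or less. Their middle scores ran from 51 at the lower quartile to 80 at the upper quartile, and 10% of them scored above 112. Sites with Foxa2 alone had nearly the same spread, from 52 to 79 between the quartiles, whereas sites with Insm1 alone ran from 55 to 99 and sites with both partners from 64 to 140.

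The share of Neurod1 sites without a partner was lower in each successive decile of score, from the weakest to the strongest. Scores of 46 to 49 gave 39.4% (37.1 to 41.8%) and scores of 176 and above gave 6.76% (5.57 to 8.18%). Sites with Insm1 alone made up 19.1% and 14.8% of the same deciles, a smaller difference, and sites with both partners 24.3% and 75.5%. Sites without a partner were thus the most frequent class in the 3 weakest deciles, up to a score of 58, although in the last of these the interval overlapped that of sites with both partners, which led in every decile above. The high-scoring end still held some of them, and IgG signal at those places was not tested. Among the 1010 sites that rank in the first 1000 (with ties) 55 had no partner, 5.45% (4.21 to 7.02%), and among the 102 that rank in the first 100 there were 4.

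**Figure D1:**
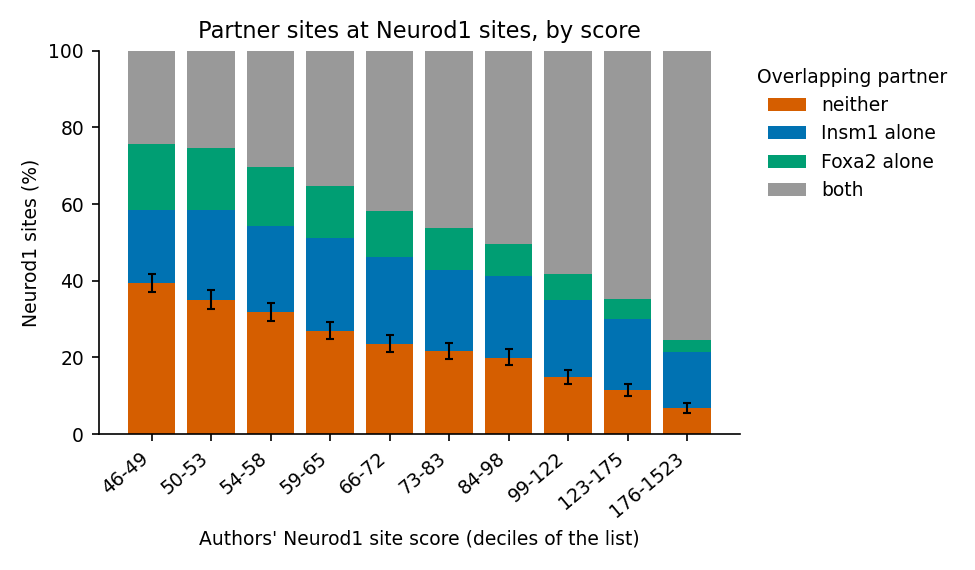
Share of Neurod1 sites (vertical axis, percent) that overlapped neither partner, Insm1 alone, Foxa2 alone or both, in deciles of the Neurod1 list by the authors' score (horizontal axis, with the scores of each decile); black bars are 95% Wilson intervals of the share with neither. The share with neither goes from 39.4% in the weakest decile to 6.76% in the strongest.

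Neurod1 sites without a partner were narrow. Their median width was 114 bp (95% interval of the median 111 to 117 bp, from the binomial distribution of ranks), compared with 138 bp (136 to 140) with Insm1 alone, 142 bp (139 to 144) with Foxa2 alone and 164 bp (163 to 165) with both. The narrowest was 48 bp and the widest 375 bp. Widths under 100 bp were found in 41.9% (40.3 to 43.6%) of them, and in 16.2% (15.6 to 16.9%) of the Neurod1 sites with a partner.

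The difference in width was present at each level of score. In the weakest quartile of the list, with scores up to 55, the median was 99 bp (97 to 103) without a partner and 143 bp (138 to 146) with both. In the strongest quartile, with scores of 109 and above, the 378 sites without a partner had a median of 128 bp (117 to 137), compared with 157 bp (151 to 165) with Foxa2 alone, 159 bp (154 to 161) with Insm1 alone and 171 bp (170 to 173) with both. The medians of the other 3 classes were highest in the strongest quartile. That of the sites without a partner was 130 bp (124 to 135) with scores of 73 to 108, and its interval overlaps that of the strongest quartile. There 39.4% (34.6 to 44.4%) of the sites without a partner were under 100 bp wide, and 4.14% (3.42 to 5.0%) of those with both.

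**Figure D2:**
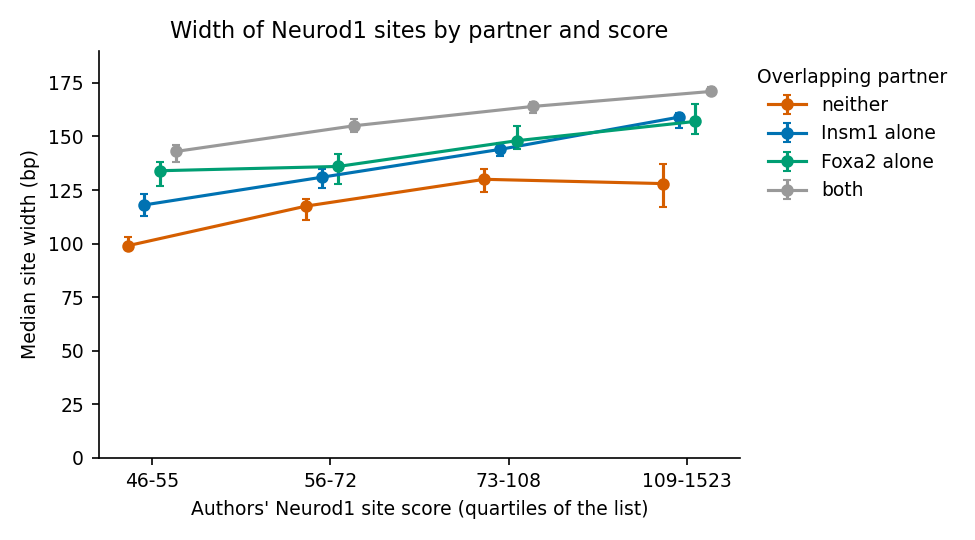
Median width of Neurod1 sites in bp (vertical axis) for each class of overlapping partner, in quartiles of the Neurod1 list by the authors' score (horizontal axis); bars are 95% intervals of the median. Sites with neither partner are the narrowest class in each quartile, at 99 bp in the weakest and 128 bp in the strongest.

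The narrowest sites were mostly of this kind. Of the 424 Neurod1 sites of at most 60 bp, 268 had no partner (63.2%, 58.5 to 67.7%), compared with 12.7% (11.5 to 14.1%) of the 2401 sites between 161 and 180 bp. A width of 52 bp was the most frequent among these narrow sites and was found in 63 of them. A narrow site has less room to overlap another, so sharing was also counted without the width, by summits within 200 bp, where the summit is the position inside each site that the lists give. By that rule 56.6% of the sites of at most 60 bp and 12.7% of the sites of 161 to 180 bp had no partner, compared with 22.3% of the whole list. The share of very narrow sites was 7.86% (7.0 to 8.81%) among Neurod1 sites without a partner, and 1.39% (1.19 to 1.63%) among those with one or both. The other lists, whose sites are wider (medians of 175 bp for Insm1 and 199 bp for Foxa2, 147 bp for Neurod1), differed in the same direction. Insm1 sites were of at most 60 bp in 0.686% (0.486 to 0.966%) of cases without a partner and 0.305% with one or both. For Foxa2 sites the shares were 1.25% (1.10 to 1.43%) and 0.51%. Widths under 100 bp were found in 6.92% and 2.63% of Insm1 sites and in 9.01% and 3.72% of Foxa2 sites, in the same order. The thresholds behind the lists are unknown, and their part in these widths was not tested.

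The summit lay in the same part of the site with and without partners. Its median position was 51.6% of the way from start to end in sites with neither and 51.1% in sites with both, with quartiles of 39.7 to 63.3% and 37.5 to 64.4%.

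Lacking an overlap did not mean lying far from the partners. The gap between the edges of a site and its nearest Insm1 or Foxa2 site had a median of 7123 bp (6433 to 7860 bp), with quartiles of 977 and 23719 bp. A partner site lay less than 200 bp away for 434 sites (12.7%, 11.7 to 13.9%), less than 1000 bp away for 860 (25.2%, 23.8 to 26.7%) and less than 10000 bp away for 1914 (56.1%, 54.5 to 57.8%). Only 114 sites (3.34%, 2.79 to 4.0%) were more than 100 kb from both partners, and the farthest was 889067 bp away. Every chromosome with such a site also had a partner site. Other Neurod1 sites lay about as near to a factor they did not overlap. By summits, a Foxa2 site lay within 10 kb of 43.3% of the sites without a partner and 42.3% of those with Insm1 alone. An Insm1 site lay within 10 kb of 37.8% of them and 37.3% of those with Foxa2 alone. Within 1 kb the shares differed more, at 16.2% and 14.3% for Foxa2 and 12.5% and 8.04% for Insm1.

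A Foxa2 site lay close by somewhat more often than an Insm1 site, in a list that is also the longest. Within 200 bp, 220 sites had a Foxa2 site alone, 151 an Insm1 site alone and 63 a site of each. The median gap was 14231 bp (13101 to 15089 bp) to Foxa2 and 17664 bp (16346 to 18947 bp) to Insm1. Foxa2 has 28379 sites and Insm1 17453, and the part that list length plays in this order was not tested.

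**Figure D3:**
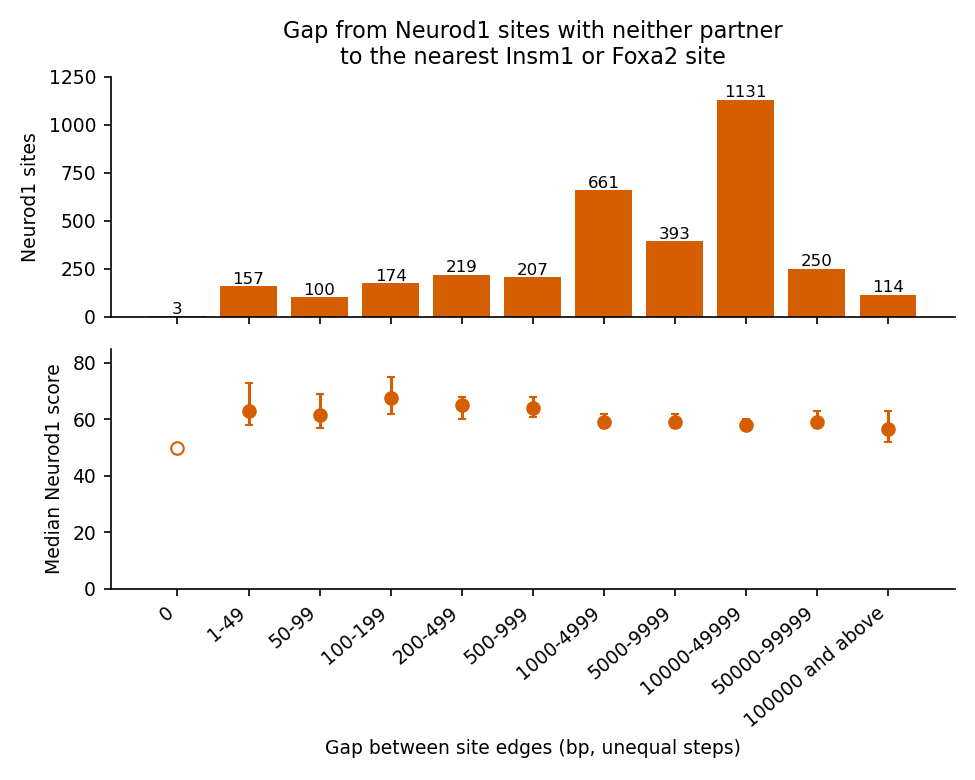
Upper panel, number of Neurod1 sites with neither partner by the gap in bp to the nearest Insm1 or Foxa2 site (horizontal axis, unequal steps); lower panel, their median Neurod1 score with 95% intervals (open circle, 3 sites, no interval). The most sites, 1131, lie at least 10000 and under 50000 bp from a partner, and the median scores lie between 50 and 67.5.

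Sites less than 1000 bp from a partner site had somewhat higher scores than those farther away, though the 65 with a gap under 20 bp had a median of 58. The median score was 64.5 (61 to 67) with a gap under 200 bp and 64 (61 to 66) from there to 1000 bp, then 59 (58 to 61) up to 10000 bp, 59 (57 to 60) up to 100000 bp and 56.5 (52 to 63) beyond. Of the sites with a gap under 200 bp, 16.8% (13.6 to 20.6%) belonged to the strongest quartile of the Neurod1 list, compared with 8.62% (7.25 to 10.2%) of those with a gap between 10000 and 100000 bp. The close sites were also narrow, with a median of 101 bp (97 to 111), whereas those with a gap between 200 and 1000 bp had a median of 124.5 bp (116 to 131). A wide site so near a partner would more easily overlap it and leave the set, so the rule itself favours narrow sites at short gaps.

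The Insm1 sites beside them had scores near the middle of their list, and the Foxa2 sites somewhat above the middle of theirs. Of these Insm1 sites 47.2% (40.6 to 53.9%) scored above their list's median, and of these Foxa2 sites 58.0% (52.1 to 63.6%). For the 214 Neurod1 sites with an Insm1 site less than 200 bp away, that Insm1 site had a median score of 126, compared with 130 in the whole Insm1 list, and in 142 cases (66.4%, 59.8 to 72.3%) it overlapped neither Neurod1 nor Foxa2, against 26.7% of the whole list. For the 283 Neurod1 sites with such a Foxa2 site, its median score was 51, compared with 42, and in 207 cases (73.1%, 67.7 to 78.0%) it overlapped neither of the other factors, against 59.8% of the whole list. An Insm1 or Foxa2 site so close to a Neurod1 site without overlapping it has little room for another Neurod1 site, which raises these shares by construction. Summits were a median of 223 bp apart for Insm1 and 232 bp for Foxa2.

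The edge of the rule passes through sites that look alike. The 65 sites with a gap under 20 bp had a median score of 58 and a median width of 88 bp. The 47 Neurod1 sites whose widest overlap with a partner was under 20 bp, and which are therefore outside the set, had a median score of 60 and a median width of 84 bp. In 3 sites the edge touched that of a partner with a gap of 0. These 3 would count as shared if the deposited ends include their last base, which is not stated.

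The 5 sites nearest to a partner were weak. On chromosome 2 a site from 158593694 to 158593764 (70 bp, score 58, mm9 positions as deposited) ended where an Insm1 site of score 77 began. On the same chromosome the sites from 140134721 to 140134792 (71 bp, score 50) and from 62206520 to 62206576 (56 bp, score 47) began where Foxa2 sites of scores 68 and 30 ended. The next 2 had a gap of 1 bp and lay on chromosome 8 at 73153563 to 73153749 (score 64), beside an Insm1 site of score 120, and on chromosome X at 133435703 to 133435841 (score 51), beside a Foxa2 site of score 108. In both chromosome 8 and X cases the nearest further Neurod1 site had no partner either.

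The highest score without a partner was far above the rest. It was 1133, on chromosome 17 from 39981114 to 39981338 (224 bp), the fifth in the whole Neurod1 list, and the next was 611. The nearest Foxa2 site was 3590 bp away, ranked 94 in the Foxa2 list and had a score of 613, whereas the nearest Insm1 site was 1076896 bp away and the nearest Neurod1 site 1352753 bp. This is therefore a place with high-scoring sites in the Neurod1 and Foxa2 lists and no Insm1 site within 1 Mb.

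The second, with a score of 611, spanned 52 bp of chromosome 1 from 197067904 to 197067956. It lay 70 bp from the highest-scoring site of the Insm1 list (score 3106), which was also 52 bp wide. Both were at the end of the span of deposited sites on chromosome 1, at 197.068 Mb. The third spanned 92 bp of chromosome 12 from 30211338 to 30211430 with a score of 510, and its nearest partners were a Foxa2 site of score 41 at 1489 bp, close to the median of 42 of that list, and an Insm1 site of score 78 at 4002 bp, near the lowest score of 76. The fourth lay on chromosome 18, was 76 bp wide and had a score of 482. It was separated from an Insm1 site of score 239 by 5 bp and from a Foxa2 site of score 162 by 7 bp, so only a few bases kept it from being counted with both partners.

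The fifth, which spanned 52 bp of chromosome 17 from 3084428 to 3084480 (score 433), had another site without a partner 1591 bp away. That neighbour was 91 bp wide, lay at 3082746 to 3082837 and had a score of 425, the next highest among sites wider than 60 bp. A Foxa2 site of score 451 and rank 226 lay 889 bp from it, and the nearest Insm1 site was 31964 bp away. The last of the 5 strongest sites wider than 60 bp lay on chromosome 7 at 87288443 to 87288608, with a width of 165 bp and a score of 420. Strong sites of both partners lay beside it, an Insm1 site of score 410 and rank 483 at 787 bp and a Foxa2 site of score 391 and rank 333 at 812 bp. Of these 7 high-scoring sites, 5 were under 100 bp wide. Whether the IgG control also had signal at these places was not tested, so a high score here is not read as strong binding of Neurod1.

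Neurod1 sites without a partner were spread among the other Neurod1 sites. A further Neurod1 summit lay within 10 kb of 27.3% (25.8 to 28.8%) of them, compared with 25.9% (24.4 to 27.5%) of sites with Insm1 alone, 30.2% (28.0 to 32.5%) with Foxa2 alone and 27.7% (26.6 to 28.8%) with both. The median distance to the next Neurod1 summit was 25520 bp (24153 to 27933 bp), and 25772 bp (24822 to 27119 bp) for sites with both partners. At close range the classes differed more. Within 1 kb a further Neurod1 summit was found for 28 sites without a partner (0.821%, 0.569 to 1.18%), compared with 0.264% (0.134 to 0.52%) with Insm1 alone, 0.623% (0.339 to 1.14%) with Foxa2 alone and 0.244% (0.15 to 0.396%) with both. Within 5 kb the shares were 16.5% (15.3 to 17.8%) without a partner, 13.4% (12.2 to 14.6%), 18.01% (16.2 to 19.96%) and 14.6% (13.8 to 15.5%) in the same order. In 8 of the 28 cases the neighbour was also without a partner.

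Distance to the sites with both partners differed more. The nearest Neurod1 site with both partners lay at a median of 82509 bp (77168 to 87708 bp) from sites with neither and 83410 bp (78524 to 89319 bp) from sites with Insm1 alone. It lay at 62981 bp (56484 to 69178 bp) from sites with Foxa2 alone and 60780 bp (57267 to 63973 bp) from other sites with both. The class of the closest further Neurod1 site also set sites with neither and with Insm1 alone apart from the other classes. It had no partner for 28.0% (26.5 to 29.5%) of sites with neither, 26.1% (24.5 to 27.7%) of sites with Insm1 alone, 20.9% (18.95 to 22.9%) of sites with Foxa2 alone and 20.0% (19.02 to 20.95%) of sites with both, against the 23.3% of the whole list.

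The surroundings showed the same pairing of classes. Within 500 kb of the summit, sites with neither partner had a median of 14 Foxa2 sites, as did sites with Insm1 alone, compared with 16 for sites with Foxa2 alone and 17 for sites with both. In each class the partner site that a Neurod1 site itself overlaps is counted. Insm1 sites numbered 12 around sites with neither and 13, 10 and 11 around the other classes in the same order. Sites with neither partner thus lay in surroundings more like those of the sites with Insm1 alone than those of the Foxa2 classes.

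Chromosomes differed in their share of Neurod1 sites without a partner. Among autosomes the share was lowest on chromosome 3, at 19.6% (16.9 to 22.5%) of 762 sites, and highest on chromosome 17, at 27.6% (24.3 to 31.2%) of 655 sites. Chromosomes 4 and 11 followed with 27.1% (24.4 to 29.9%) and 26.7% (24.0 to 29.5%), and their intervals overlap that of chromosome 17. Per Mb of autosome, chromosome 11 had the most sites without a partner at 2.13, and chromosome 6 the fewest at 0.924.

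The order of the autosomes followed their gene content. Protein-coding genes were counted per chromosome in the RefSeq table of GRCm38, without using its positions, and divided by the span up to the last deposited site. Across the 19 autosomes the share of Neurod1 sites with neither partner was higher where there were more genes per Mb, with Spearman's rho of 0.81 and Pearson's r of 0.78. The share with both partners went the other way, with rho of -0.82, and that with Insm1 alone went the same way, with rho of 0.81. Without chromosomes 7 and 11, the farthest from the median gene content, r was 0.79 for sites with neither. These are descriptions over 19 chromosomes that share 1 list for each factor, and no test was made.

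In sizes, 25.5% (24.3 to 26.8%) of the 4930 Neurod1 sites on the 6 autosomes with the most genes per Mb (chromosomes 2, 7, 9, 11, 17 and 19) had no partner, with single chromosomes between 24.2 and 27.6%. Of the 4071 Neurod1 sites on the 6 with the fewest (chromosomes 1, 3, 12, 13, 14 and 18) 21.0% (19.8 to 22.3%) had none, with single chromosomes between 19.6 and 22.2%. The 7 autosomes between them gave 22.9% (21.8 to 24.1%), and their single values, from 21.0 to 27.1%, overlapped both of these ranges. In percentage points the difference was larger among weak sites, where the shares themselves were higher, though the change with score was not tested. In the weakest quartile of the list the shares were 37.9% (35.2 to 40.7%) and 32.2% (29.4 to 35.1%), and in the strongest quartile 11.5% (9.83 to 13.4%) and 10.2% (8.44 to 12.2%), where the intervals overlap. The 7 autosomes between them gave 37.8% and 9.25%, the latter below both. Among Neurod1 sites above the median score rho was 0.46.

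**Figure D4:**
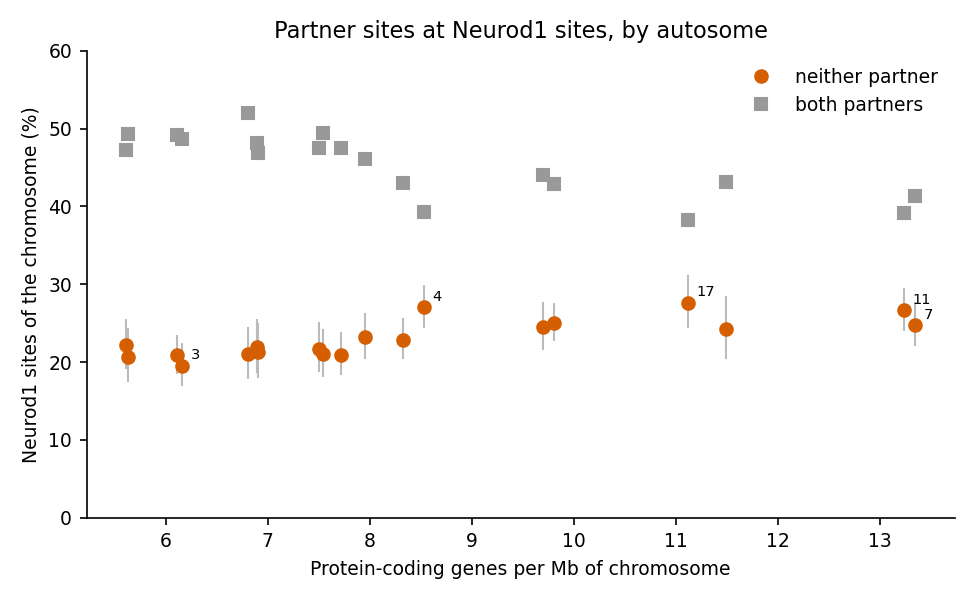
Share of the Neurod1 sites of each autosome (vertical axis, percent) with neither partner (circles, some with their chromosome number, grey bars are 95% Wilson intervals) and with both partners (squares), against protein-coding genes per Mb (horizontal axis). The share with neither lies between 19.6 and 27.6% and is higher on chromosomes rich in genes.

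Sites of the partner lists that met no other factor were set beside these. The share of Insm1 sites with neither partner was also higher on chromosomes rich in genes, with rho of 0.70, whereas that of Foxa2 sites with neither partner was lower there, with rho of -0.68. On this measure the Neurod1 and Insm1 sites standing alone ran in the same direction, and the Foxa2 sites standing alone in the opposite one.

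The X chromosome held 50 of the sites, 27.9% (21.9 to 34.9%) of its 179 Neurod1 sites, an interval that takes in the share of the whole list. The highest of these spanned 64 bp from 11713371 to 11713435 with a score of 174. Both Neurod1 sites on Y and the only site on the mitochondrial genome were without a partner. The mitochondrial site, at 1880 to 2104, was 224 bp wide and had a score of 175, and the Insm1 list has no site on either. The Y sites had scores of 84 and 83. Whether the IgG control also had signal at the Y and mitochondrial sites was not tested.

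Some stretches of the genome held several of the sites. Of 1396 windows of 1 Mb that held any, 572 held 1, and 179 held 5 or more, with 1138 of the sites in the latter. The same count was not made for all Neurod1 sites, so it does not show that these sites gather more than others. Within 500 kb of the summit they had a median of 10 other Neurod1 sites. Sites with Insm1 alone, Foxa2 alone and both had 10, 9 and 9. The fullest was from 80 to 81 Mb on chromosome 10, where 17 of 32 Neurod1 sites had no partner and 2 had both, with 23 Insm1 and only 5 Foxa2 sites in the window. Their scores ran from 47 to 177 with a median of 64. From 26 to 27 Mb on chromosome 17, 14 of 30 Neurod1 sites had no partner, and 10 had both. From 73 to 74 Mb on chromosome 8, 12 of 18 had none and 2 had both. From 19 to 20 Mb on chromosome 7, 11 of 13 had none and not a single one had both, although the window held 10 Insm1 and 7 Foxa2 sites, and the median score of the 11 was 86. The windows on chromosomes 10, 17 and 8 held the most sites. The one on chromosome 7 tied at 11 with windows at 79 to 80 Mb on chromosome 10, 78 to 79 Mb on chromosome 15 and 25 to 26 Mb on chromosome 17. There 11 of 24, 11 of 18 and 11 of 27 Neurod1 sites had no partner, all lower shares than on chromosome 7. The shares of such picked windows are descriptions.

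The number of sites without a partner depends on how long the partner lists are. With only the best-scoring 75% of the Insm1 list, 565 more Neurod1 sites had no partner, and with the best 75% of the Foxa2 list 292 more. The weakest quartile of the Insm1 list, though it has fewer sites, thus held more of the overlaps that no other site provided than the weakest quartile of the Foxa2 list. With both lists limited to 75% the number was 4338. Partner signal below the authors' thresholds is not in the lists and was not analysed here.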

How the data were processed

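The authors made the lists on the mm9 build, and the tools named per the submitters' processing notes are CASAVA, Bowtie (0.12.7) and the peak caller MACS (1.4). No source used here states their settings, thresholds or controls, or how the repeats named in the design text entered the lists. Each deposited list has no header and holds a chromosome, a start, an end, an inner position read as the summit, and a whole number treated as the authors' score. Coordinates are given as deposited.

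Distances, classes and 95% Wilson intervals were computed with Python 3.11.15, numpy 2.4.6, pandas 2.3.3 and scipy 1.17.1, and figures with matplotlib 3.10.9. Intervals of medians come from binomial ranks. Gaps were tested on simulated partner sites placed at known distances, and the number of sites without a partner was checked with bedtools 2.31.1. Tied scores stayed in 1 decile or quartile.

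The sites, lists and rules were chosen with earlier results of these data known. Of the score no scale is known, and it was compared only within a list. Named sites are the 5 with the highest score, the 5 highest wider than 60 bp and the 5 nearest to a partner, the sites on Y and the mitochondrial genome and the highest on X being added after their values were seen. Neither a genome nor gene positions of mm9 were used, so sites carry no gene names, motifs or sequences. The RefSeq table of GRCm38 served only for counts of genes per chromosome.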

Additional observations from a re-analysis of the deposited data

How the results depend on the processing

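Of 50 alternative values over 18 results, 39 stayed within 1.5 times the main number, the 95% interval of the main value or, for the rank correlation, 0.1 of it. The 3409 sites became 1090 with Neurod1 sites above the median score, 1992 with all lists above their medians, 5615 with the best 25% of the Insm1 list, and 5998 and 8790 with the best 50% and 25% of both partner lists, as fewer sites by construction imply. The median width was 120 bp without sites of at most 60 bp, which removes the narrowest. The share of sites of at most 60 bp that had no partner was 56.6% with summits within 200 bp and 47.6% with sites widened by 500 bp, where the whole list gave 17.5%. A further Neurod1 site lay within 1 kb of 1.58% of sites when edges were used. The rank correlation with gene content was 0.46 for Neurod1 sites above the median score and 0.43 with all lists above it, and between 0.76 and 0.86 under the other settings. The cause was not tested. Shortened partner lists, the rules for narrow sites and gene content were added after seeing the data. Motifs and transcription starts were not run, since no mm9 genome or annotation was used. No paired analysis was possible because each factor has 1 sample. Depth is unknown.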
